A study of Mus musculus with 3 samples.

Results

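The forkhead transcription factors described here are 10 genes, Foxo1, Foxo3, Foxo4, Foxc1, Foxc2, Foxf1, Foxp1, Foxn3, Foxj2 and Foxk1. They were found by gene symbol among the 17583 genes of the deposited table, and all 10 were listed. Ribosome-associated RNA was purified from hearts of 3 EC-RiboTag mice of the genotype Cdh5-CreERT2;Rpl22tm1.1Psam and sequenced as single-end reads of 72 bases. In these mice the Cdh5 promoter drives a tamoxifen-inducible Cre in endothelial cells, and Cre switches Rpl22 to an epitope-tagged form that lets the ribosomes of recombined cells be precipitated. All 3 libraries belong to 1 group. Recombination had been induced with tamoxifen in all of them. The labels place that group at day 7 after coronary ligation and give the tissue as heart. The study abbreviates the remote zone of infarcted hearts as RZ and sampled zones of EC-RiboTag hearts at that day for another assay, and the titles of these libraries carry the letters Rz, but no label names the zone. Its description of RNA sequencing from EC-RiboTag hearts mentions no ligation. The labels also do not give the sex of the mice. No input or control library was analysed here. Levels are therefore described within the precipitate, and forkhead RNA of endothelial cells cannot be told apart from forkhead RNA of other heart cells that came along. To show enrichment of endothelial RNA in EC-RiboTag hearts, the study compared cell type markers between immunoprecipitate and input by qRT-PCR. No forkhead gene was among those markers.

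Forkhead proteins bind DNA through a winged-helix domain, in which a recognition helix enters the major groove of the target site. FoxO proteins are the end point of the PI3K-AKT pathway. AKT phosphorylates them, 14-3-3 proteins then hold them in the cytoplasm, and in endothelium unphosphorylated FoxO1 slows growth and metabolism. FoxC proteins act in arterial, endocardial and lymphatic development, FoxF1 is best known from the vessels of the lung, and FoxP and FoxK proteins are mostly repressors that recruit corepressor complexes.

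The stretch of coding DNA around the recognition helix shows how alike the members are and where they differ. It is printed for 9 members, 5′ to 3′ on the coding strand of GRCm39. The capitals mark the 24 bases that encode a motif of 8 residues in the helix, by which the stretch was located. The ends of the helix were not determined. Where the stretch crosses 2 exons, start and end enclose an intron.
Foxo1 (chr3:52176829-52252504, plus strand, 2 exons): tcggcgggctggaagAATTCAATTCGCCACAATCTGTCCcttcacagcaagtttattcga
Foxo3 (chr10:42073853-42150826, minus strand, 2 exons): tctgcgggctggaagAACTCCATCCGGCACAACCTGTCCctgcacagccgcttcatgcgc
Foxo4 (chrX:100298865-100301827, plus strand, 2 exons): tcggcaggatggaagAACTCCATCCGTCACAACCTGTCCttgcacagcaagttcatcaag
Foxc1 (chr13:31991545-31991604, plus strand, 1 exon): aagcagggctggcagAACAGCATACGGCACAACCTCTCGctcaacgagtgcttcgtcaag
Foxc2 (chr8:121843687-121843746, plus strand, 1 exon): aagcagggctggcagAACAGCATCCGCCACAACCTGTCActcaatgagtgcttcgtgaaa
Foxf1 (chr8:121811402-121811461, plus strand, 1 exon): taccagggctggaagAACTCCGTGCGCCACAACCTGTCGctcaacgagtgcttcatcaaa
Foxn3 (chr12:99354641-99354700, minus strand, 1 exon): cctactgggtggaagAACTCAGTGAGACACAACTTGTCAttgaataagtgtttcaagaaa
Foxj2 (chr6:122805448-122808439, plus strand, 2 exons): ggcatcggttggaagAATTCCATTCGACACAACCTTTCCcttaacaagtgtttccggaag
Foxk1 (chr5:142436128-142437238, plus strand, 2 exons): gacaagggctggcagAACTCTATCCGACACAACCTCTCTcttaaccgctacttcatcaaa

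Of the 60 bases, 23 were the same in the 9 members shown, among them 12 of the 24 bases in capitals. Over the 36 pairs of these members, identity in this stretch ranged from 53.3% to 88.3% with a median of 65.0%, and Foxc1 and Foxc2 were the most alike. None of the 45 pairs of canonical transcripts of the 10 members shared an exact run as long as a read. The longest such run was 53 bases, again between Foxc1 and Foxc2. A search of the genome found no second exact copy of any window of 72 bases from the 10 canonical transcripts. Shorter reads left by trimming were not examined. Exons of another gene on the same strand, where reads were not counted, overlapped only 0.0375% of the bases of Foxj2 and no base of the other members.

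The immunoprecipitates carried endothelial and other transcripts. The table holds DESeq2-normalized counts rounded to whole numbers, which summed to between 7149102 and 7268785 per library. The whole numbers that rounding skips or doubles give an estimate of 0.977, 1.06 and 0.961 normalized counts per read in mice 1, 2 and 3, that is about 6753000 to 7564000 reads per library. All 12 endothelial markers, all 10 cardiomyocyte markers, all 8 fibroblast markers, all 8 mural markers and 7 of 8 leukocyte markers were listed. Per kilobase of canonical transcript, the median was 711 normalized counts for the endothelial list, 565 for the cardiomyocyte list, 107 for the fibroblast list, 47.1 for the mural list and 23.0 for the leukocyte list. Per kilobase of all annotated exons, the first 2 of these medians were 376 and 190. The authors removed duplicate reads by position, which compresses high levels per length. The gap between these lists therefore does not measure enrichment.

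Before division by length, Foxp1 and Foxo1 had the highest normalized counts of the 10 members, and Foxc2 and Foxf1 had the lowest. Foxp1, a repressor with roles in heart and vessel development, reached 1719, 1800 and 1734 normalized counts in mice 1, 2 and 3, with a mean of 1751 ± 43.1 (SD, n = 3 mice) and rank 413 of all genes by mean. Foxo1 had 1523, 1397 and 1439, with a mean of 1453 ± 64.2 (SD, n = 3) and rank 773. These were the members with the smallest spread, with coefficients of variation of 2.46% and 4.42%, where counting alone would give 2.39% and 2.62%. The values from counting take no account of the removal of duplicate reads, which compresses high levels per length. Foxk1, a repressor linked to nutrient signalling, had 1143, 1064 and 1332, a mean of 1180 ± 138 (SD, n = 3). Foxn3, a repressor first described in cell cycle checkpoints, had 1305, 946 and 1287, a mean of 1179 ± 202 (SD, n = 3). Mouse 2 stood apart for Foxn3, and the values of the other 2 mice nearly coincided. Foxo4 had 1311, 1017 and 1096, a mean of 1141 ± 152 (SD, n = 3), and Foxj2, a less studied activator, had 1096, 941 and 1058, a mean of 1032 ± 80.8 (SD, n = 3). Foxo3 had 1030, 912 and 989, a mean of 977 ± 59.9 (SD, n = 3). The order was thus mouse 1, mouse 3, mouse 2 for all 3 FoxO members, over a range of at most 1.29-fold between the highest and the lowest mouse.

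**Figure D1:**
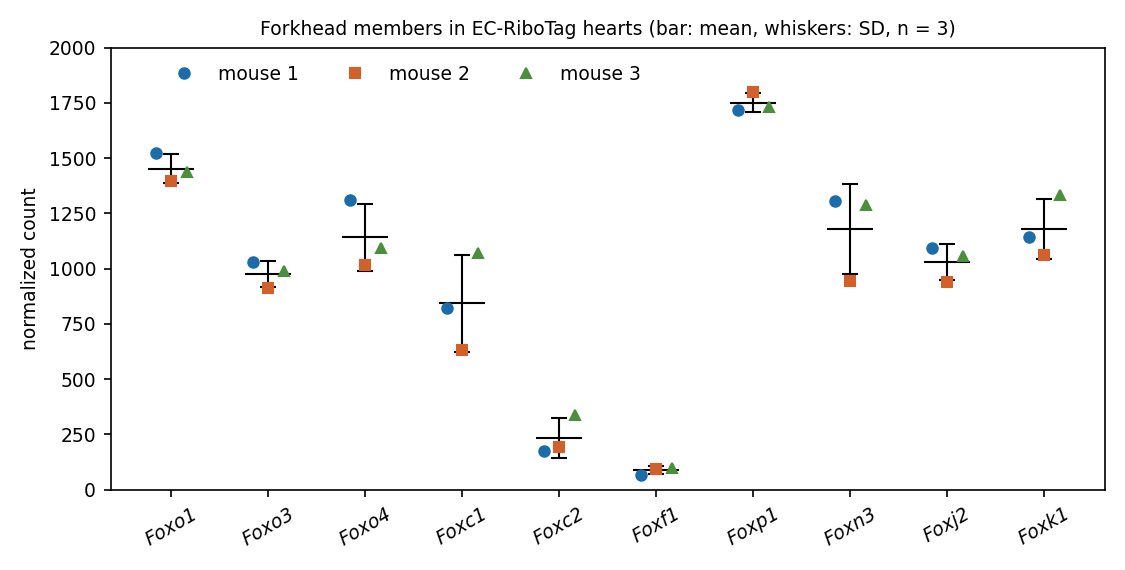
Normalized counts (vertical axis, linear from 0) of the 10 forkhead members in the EC-RiboTag libraries, with 1 point per mouse, a bar at the mean and whiskers of 1 SD (n = 3). Foxp1 and Foxo1 lie highest with tight points, the 3 mice spread most for Foxc1 and Foxn3 in absolute counts, and Foxf1 lies lowest with 67 to 100.

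The FoxC genes and Foxf1 had the largest coefficients of variation of the members. Foxc1, which takes part in endocardial, arterial and lymphatic development, reached 824, 633 and 1073 normalized counts in mice 1, 2 and 3, a mean of 843 ± 221 (SD, n = 3). Foxc2, a regulator of lymphatic valves, had 173, 194 and 338, a mean of 235 ± 89.8 (SD, n = 3). Both FoxC genes were highest in mouse 3, by 1.70-fold and 1.95-fold over the lowest mouse. Foxf1 had 67, 95 and 100, a mean of 87.3 ± 17.8 (SD, n = 3), and rests on about 69 to 104 reads per library. Its coefficient of variation of 20.4% compares with 10.7% from counting alone, the largest value from counting of any member.

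The counts and ranks above are not adjusted for length, and longer transcripts give more reads for each molecule, so levels of different genes were compared per length. Divided by the length of the canonical transcript, the mean levels ran from 948 normalized counts per kilobase for Foxp1 to 35.4 for Foxf1. Between them lay Foxo4 with 354, Foxj2 with 194, Foxo1 with 168, Foxk1 with 158, Foxn3 with 149, Foxc1 with 144, Foxo3 with 142 and Foxc2 with 86.2. The median of the 10 members was 154 per kilobase, against 73.0 for all 17475 genes with a length. With 9 of 10 members above that median, only Foxf1 was below it. The members were chosen with earlier results of these data known, and of all 24 forkhead genes listed, 13 were above that median. Of the members, Foxp1, Foxo4 and Foxj2 exceeded the median of 176 per kilobase among genes averaging 200 or more. By the longest protein-coding transcript 5 members, and by all annotated exons 7 members, were above the median of such genes. Of the 9 neighbouring pairs in the order per length, 5 had ranges over the 3 mice that did not overlap, against 4 by the longest protein-coding transcript and 2 by all annotated exons. Foxo1, Foxk1, Foxn3, Foxc1 and Foxo3, in this order, overlapped with their neighbours, and their order changed between mice.

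The place of Foxp1 depends on which transcript is taken. Its canonical transcript in the annotation has 1848 bases, of which only 117, the stop codon included, lie outside the coding sequence. The estimated reads of Foxp1 were 1759, 1698 and 1804 in mice 1, 2 and 3. That is close to 1 read per base of this transcript, about the limit set by removal of duplicates. Reads were counted over all exons of a gene, so the value per kilobase of canonical transcript can include reads from outside it. Where the reads lie was not examined. Foxp1 has 45 protein-coding transcripts, the longest with 8175 bases, and 16169 bases when all annotated exons are joined. By the longest protein-coding transcript, an alternative chosen after seeing the data, Foxp1 had 214 per kilobase and came second to Foxo4. By all annotated exons it had 108 and came sixth among the members. Its percentile among all genes was 99.9, 82.4 and 77.4 by these lengths. Foxo4 varied little with the definition of length, with 354, 354 and 322 per kilobase and percentiles of 91.1, 94.1 and 97.7. Foxo4 and Foxj2, and Foxc2 and Foxf1, had no overlap of their ranges under any of the 3 lengths.

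**Figure D2:**
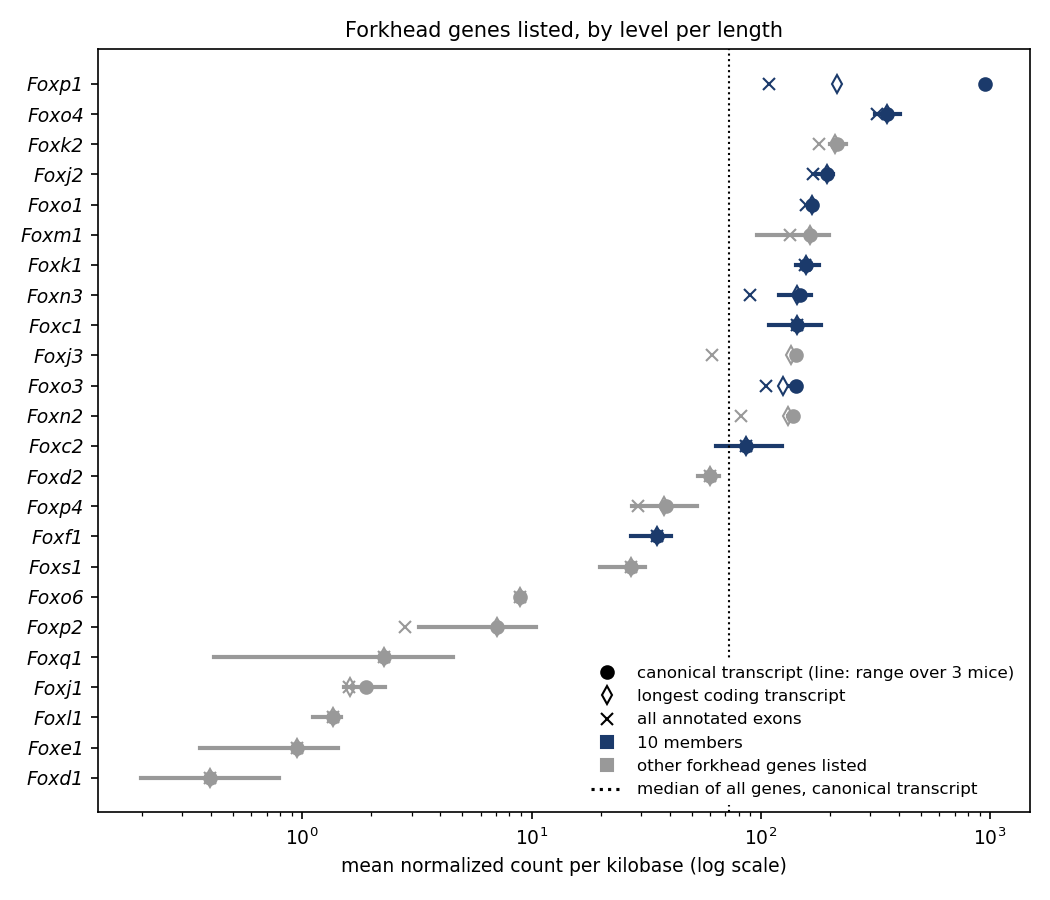
Mean normalized count per kilobase (horizontal axis, log scale) of the 24 forkhead genes listed, by canonical transcript with the range over 3 mice (point and line), longest coding transcript (diamond) and all annotated exons (cross), with members in blue. Of the members, 9 lie right of the dotted median of all genes at 73.0, and the 3 marks of Foxp1 lie far apart, between 108 and 948.

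Close relatives were compared within each mouse as the log2 ratio of the values per kilobase of canonical transcript, with a pseudocount of 0.5. With 3 mice, the two-sided exact permutation test by sign flips cannot give a p below 0.25, so the size and the spread carry the comparison. Of the FoxO genes, Foxo4 exceeded Foxo1 in each mouse. For Foxo1 to Foxo4 this log2 ratio came to -1.07 ± 0.13 (SD, n = 3; exact sign-flip test p = 0.25), so Foxo4 was 2.10-fold higher per length, although Foxo1 had the higher counts. Foxo1 exceeded Foxo3 by 0.24 ± 0.04 on the log2 scale (SD, n = 3; exact sign-flip test p = 0.25). The fourth FoxO gene, Foxo6, was lower by far, with 8.93 per kilobase. Foxc1 exceeded Foxc2 by 0.77 ± 0.33 (SD, n = 3; exact sign-flip test p = 0.25), and the ratio in mouse 1, 1.15, was larger than 0.60 and 0.56 in mice 2 and 3.

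Foxp1 exceeded Foxp4, another FoxP repressor that can pair with it, by 4.66 ± 0.47 on the log2 scale (SD, n = 3; exact sign-flip test p = 0.25). That 25.3-fold difference shrank to 5.85-fold by the longest protein-coding transcripts and to 3.83-fold by all annotated exons, and kept its direction in each mouse. Foxk1 was lower than Foxk2 by a small margin, at -0.45 ± 0.10 on that scale (SD, n = 3; exact sign-flip test p = 0.25), and Foxj2 exceeded Foxj3 by 0.44 ± 0.12 (SD, n = 3; exact sign-flip test p = 0.25). By all annotated exons the excess of Foxj2 was 2.74-fold in place of 1.35-fold. Foxn3 and Foxn2 did not differ by more than the spread between mice, with 0.10 ± 0.28 (SD, n = 3; exact sign-flip test p = 0.75) and the opposite direction in mouse 2. After Benjamini-Hochberg adjustment over the 7 pairs, the p of this exact test was 0.29 for the first 6 pairs and 0.75 for Foxn3 and Foxn2. Foxf1 could not be set against Foxf2, the other FoxF gene, because the table does not list Foxf2.

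**Figure D3:**
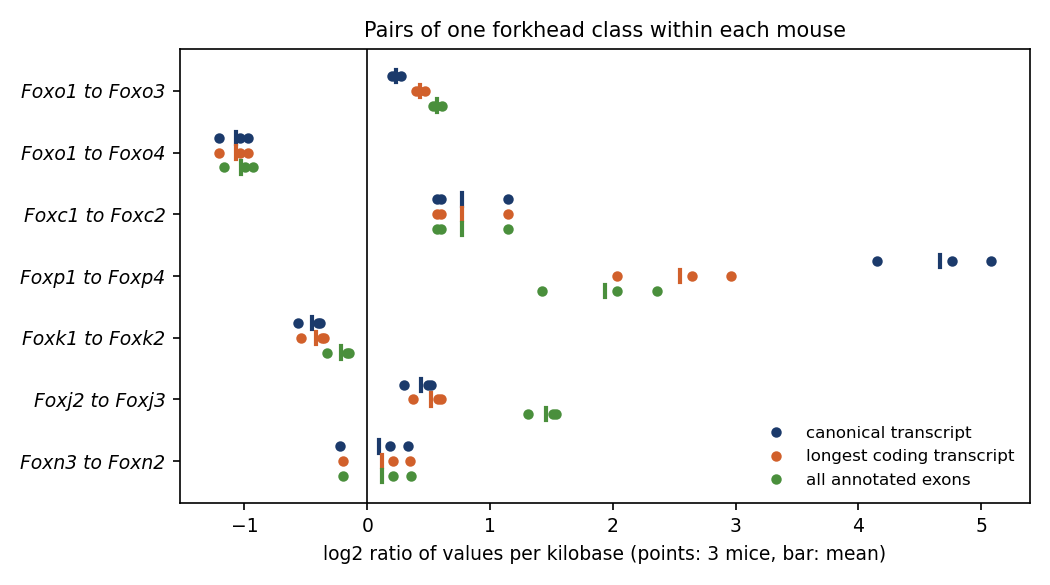
Log2 ratio of values per kilobase (horizontal axis) for 7 pairs of the same forkhead class, with 1 point per mouse and a bar at the mean, under 3 definitions of transcript length. Foxo1 to Foxo4 and Foxk1 to Foxk2 lie below 0 and Foxn3 to Foxn2 straddles 0, whereas Foxp1 to Foxp4 moves from 4.66 to 1.94 with the length used.

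Between the mice, the FoxC genes were the members that varied. Among the 9 members averaging 200 or more, 2 had a coefficient of variation over 20%, Foxc2 with 38.2% and Foxc1 with 26.2%. Over all 9358 genes with such a mean, 8.00% passed this threshold. The median coefficient was 11.7% for those 9 members and 7.37% for all genes at that level. These calls rest on single libraries. Without mouse 3 the coefficient of Foxc2 was 8.09%, and without mouse 2 or mouse 3 that of Foxc1 was 18.6% or 18.5%. Foxn3, with 17.2% over all mice, reached 21.6% without mouse 1 and 22.6% without mouse 3. Of the 10 members, 7 had their lowest value in mouse 2, which held the lowest value for 28.8% of all genes at that level, and none had its lowest value in mouse 3, where 38.97% of those genes had theirs.

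Markers of endothelial subtypes and of other cells differed between the same mice. In bulk libraries, fewer cells of a type and less RNA per cell cannot be told apart. The single marker genes named next were chosen after their values were seen. Foxc1 was lowest in mouse 2 and highest in mouse 3, and so were 3 of the 4 endocardial markers, among them Npr3 with 1589, 914 and 2228 and Tmem108 with 328, 209 and 589 in mice 1, 2 and 3. Foxk1, with 1143, 1064 and 1332, had that order too, and the share of all genes with it was not counted. All 4 endocardial markers were highest in mouse 3, as were 29.7% of all genes averaging 200 or more, and their summed level was 4976, 4172 and 6961. Foxc2 was lowest in mouse 1 and highest in mouse 3. The 5 lymphatic endothelial markers were all lowest in mouse 1, but 3 of them were highest in mouse 2 and 2 in mouse 3. Their summed level was 2834, 3523 and 3989 and their median 349, 554 and 550, the values of Prox1, the defining regulator of lymphatic identity. No endocardial or lymphatic marker was at 0 in any mouse.

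Marker lists of cells outside the endothelium all had their lowest sum in mouse 1, but their single genes did not share 1 order. Cardiomyocyte markers summed to 20679, 21339 and 24237 in mice 1, 2 and 3, but 6 of 10 were highest in mouse 1 and their median was 1177.5, 1114 and 1078. Fibroblast markers summed to 3047, 3970 and 4186, with 4 of 8 highest in mouse 2 and 4 in mouse 3. Mural markers summed to 1610, 2002 and 2274, with 5 of 8 highest in mouse 3, and leukocyte markers to 447, 681 and 681. Of the fibroblast markers, Lum and Dcn had the order of Foxc1 instead, with 458, 309 and 618 and with 813, 579 and 1007. Among mural markers, Tagln, Acta2, Pdgfrb and Myh11 had the order of Foxc2, Abcc9 had that of Foxc1, and the others had neither. The fibroblast markers Pdgfra and Tcf21, the leukocyte markers Csf1r, Adgre1, Itgam and Lyz2 and the cardiomyocyte markers Tnnt2, Ryr2 and Ttn also had the order of Foxc2. So did Cdh5, Flt4, Lyve1 and Nfatc1 of the endothelial lists. The share of all genes with either order was not counted. Tagln had 103, 206 and 338, and these genes too were named after their values were seen. The endothelial markers summed to 28759, 27701 and 27593, with 6 of 12 highest in mouse 1 and 5 in mouse 2. All 3 FoxO members were highest in mouse 1, as were 38.1% of all genes averaging 200 or more. The part of any of these cells in the forkhead values was not tested.

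**Figure D4:**
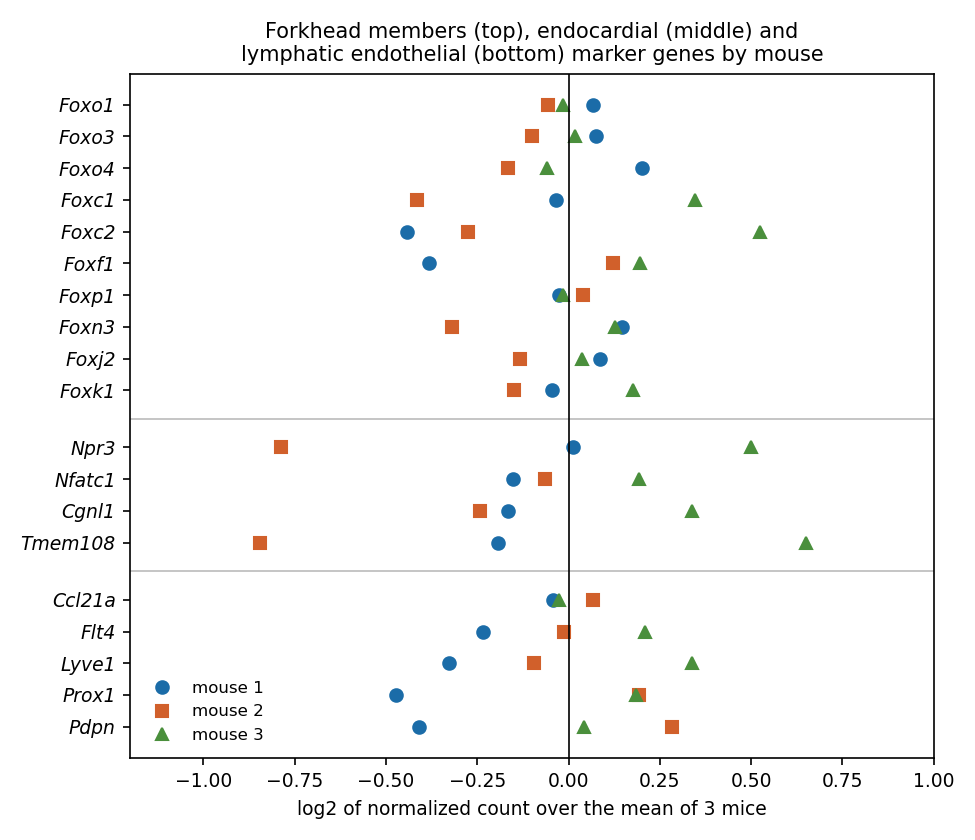
Log2 of the normalized count in each mouse over the mean of 3 mice (horizontal axis) for the 10 forkhead members, 4 endocardial and 5 lymphatic endothelial marker genes. In mouse 3 (triangles) Foxc1, Foxc2 and all 4 endocardial markers lie right of 0, and in mouse 2 (squares) Foxc1, Foxn3, Npr3 and Tmem108 lie to the left.

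Foxo4 is the only member on chromosome X. Its highest value was in mouse 1, with 1311 against 1017 and 1096. Xist, the noncoding RNA that silences the second X chromosome and named here after its values were seen, had 4, 618 and 869 normalized counts in mice 1, 2 and 3. The labels do not give sex, so the mice may differ in it, which would bear on any difference between mouse 1 and the others. Its part in the value of Foxo4 was not tested.

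Foxf1, Foxc2 and Foxc1 sit in clusters of forkhead genes, in which the neighbours that are no members had low counts. On chromosome 8, Foxf1 (121811125-121814883), Foxc2 (121842910-121845634) and Foxl1 (121854679-121857383) lie on the plus strand with gaps of 28026 and 9044 bases. Foxc2, with a mean of 86.2 normalized counts per kilobase, stood above Foxf1 with 35.4, and Foxl1 had no more than 4 normalized counts in any mouse. Fendrr, a long noncoding RNA gene on the minus strand that starts 1275 bases before Foxf1 and runs away from it, had 0, 5 and 4. On chromosome 13, Foxc1 (31990616-31996459) lies 245656 bases beyond Foxq1 (31740117-31744959), which had 9, 2 and 22 normalized counts. Foxf2, annotated between them at 31809663-31816393, was not listed. Foxc1 and Foxc2 each consist of 1 exon, whereas the canonical transcripts of the other members have between 2 and 15.

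Of 45 mouse forkhead genes looked for, 24 were listed and 21 were not. The table lists no gene whose highest value is below 4, so an unlisted gene is below that floor in each mouse, within the annotation the authors used. Outside the 10 members, Foxk2 with 1163 ± 98.0, Foxm1 with 836 ± 299, Foxj3 with 731 ± 8.4 and Foxn2 with 702 ± 30.1 normalized counts (SD, n = 3) had levels per kilobase of 216, 164, 143 and 138, within the range of the members. Foxm1, which drives genes of mitosis, had 491, 1011 and 1006 in mice 1, 2 and 3, a coefficient of variation of 35.7%. Foxp4 and Foxp2 were higher in mouse 3 than in mouse 1, with 113, 148 and 218 and with 22, 52 and 71. Foxd2 had 155 ± 16.1, Foxo6 52.3 ± 2.1 and Foxs1, a gene known from pericytes, 35.7 ± 8.4. Several factors best known from other tissues were near or below the floor. Foxj1 of ciliated cells, Foxl1, Foxe1 and Foxd1 stayed at 6 or less in each mouse, and Foxa1, Foxa2 and Foxa3 of liver and gut, Foxn1 of the thymus and Foxp3 of regulatory T cells were among those not listed.

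The genes that act with the members were all listed. The 19 genes of the PI3K-AKT list upstream of FoxO had a median of 122 normalized counts per kilobase of canonical transcript, and 14 of 19 lay above the median of all genes. Against the median of 176 per kilobase among genes averaging 200 or more, 6 of 19 were higher, as were 27.3% of all genes. The highest was Sgk1, a kinase that phosphorylates FoxO proteins as AKT does, with 686 ± 13.6 per kilobase (SD, n = 3), and the lowest was the insulin receptor substrate gene Irs1, with 102, 160 and 130 normalized counts on a transcript of 9345 bases. None of the 17 averaging 200 or more varied by over 20% between mice, against 8.00% of all genes at that level. Of the 14 genes for 14-3-3 proteins and for enzymes that modify FoxO, 13 lay above the median of all genes. The median of genes averaging 200 or more was exceeded by 9 of the 14. The highest was Ywhab, a 14-3-3 gene, with 577 ± 23.3 per kilobase (SD, n = 3), and the lowest was Skp2, a ubiquitin ligase subunit, with 54.7 ± 16.8. Skp2 and the acetyltransferase gene Ep300, 2 of 14, passed 20%, with coefficients of 30.7% and 22.5%.

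Genes known as FoxO targets spanned a wide range. Of the 21 on the list, all were listed and 18 lay above the median of all genes per kilobase, with a list median of 180. The median of genes averaging 200 or more was exceeded by 11 of 21. Txnip, an inhibitor of thioredoxin and glucose uptake, was the highest with 722 ± 35.3 per kilobase (SD, n = 3), and Bcl6, a repressor, was the lowest with 41.8 ± 6.9. The muscle ubiquitin ligase genes Trim63 and Fbxo32 and the coactivator gene Cited2, 3 of the 20 averaging 200 or more, varied by over 20%. Of all genes at that level, 8.00% did so. Trim63 had 315, 211 and 202 normalized counts in mice 1, 2 and 3, Fbxo32 had 589, 401 and 368, and Cited2 had 443, 319 and 508. Trim63 and Fbxo32 were thus highest in mouse 1, where all 3 FoxO members and 6 of 10 cardiomyocyte markers were highest as well. Cited2 was highest in mouse 3. Whether these values are linked was not tested. The list as a whole summed to 17498, 16261 and 16426 normalized counts, and 12 of its 21 genes were highest in mouse 1. Of all genes averaging 200 or more, 38.1% were highest there.

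The list of FoxC and FoxF targets was led by genes that also define endothelium. Of its 9 genes, 6 lay above the median of all genes, the highest being Cdh5 with 713 ± 15.2 per kilobase (SD, n = 3). The same 6 exceeded the median of genes averaging 200 or more. Cdh5 and Tek of this list are endothelial markers too, so its median of 352 is not independent of the endothelial list. The lowest was Rspo3, a secreted Wnt enhancer, with 10.5 ± 4.3. Itgb3, an integrin subunit, had 151, 334 and 285 normalized counts and was the only gene of this list averaging 200 or more that varied by over 20%. This list has 7 genes at that level, and 8.00% of all genes at that level varied so. All 14 genes of FoxK and FoxP partners lay above the median of all genes, from Hdac2, a histone deacetylase, with 395 ± 26.0 per kilobase (SD, n = 3) to Dvl2, which FoxK proteins carry into the nucleus, with 89.5 ± 7.4. Of these 14, 8 exceeded the median of genes averaging 200 or more. Hcfc1, which encodes a chromatin cofactor, had 743, 878 and 1137 normalized counts in mice 1, 2 and 3, a coefficient of variation of 21.8%.

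**Figure D5:**
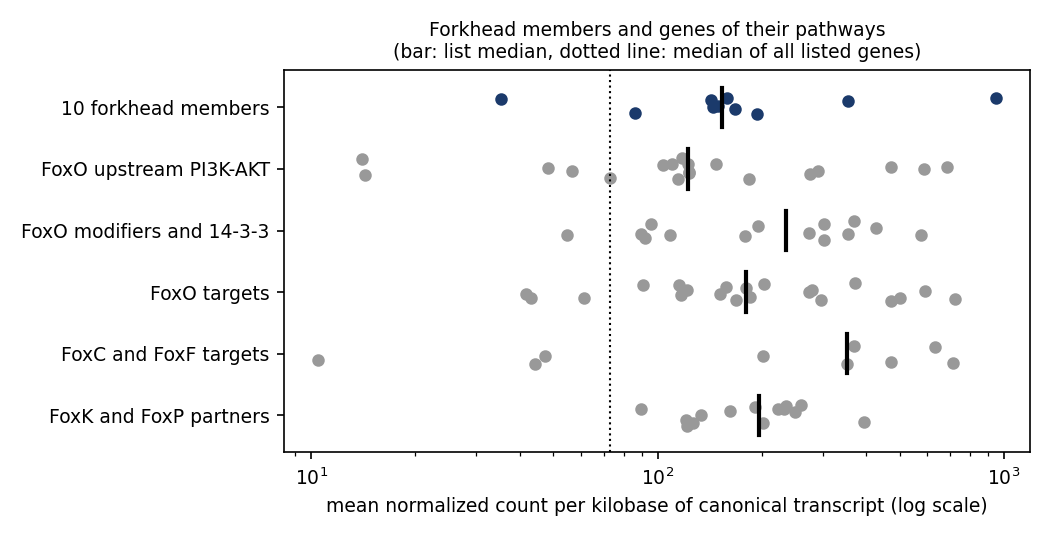
Mean normalized count per kilobase of canonical transcript (horizontal axis, log scale) of the 10 forkhead members and of the genes of 5 pathway lists, with 1 point per gene, a bar at each list median and a dotted line at the median of all genes. The medians are 154 for the members and between 122 and 352 for the lists.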

How the data were processed

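RNA bound to tagged ribosomes was sequenced from 3 mice, which form 1 group. The authors trimmed reads with Trimmomatic 0.39, aligned them to mm39 with STAR 2.7.11a, removed duplicates with Picard 3.1.1, dropped reads that mapped to several places, to ribosomal genes or to mitochondria, and counted exonic reads by strand with featureCounts 2.0.4, leaving out reads on several genes. The deposited values are a score, the counts as the authors normalized them with DESeq2 1.36.0, rounded to whole numbers, so no test for raw counts was run. Removal of duplicates by position limits a gene to about 1 read per base and strand, which compresses high levels per length.

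Means, SDs, ranks and coefficients of variation were computed with Python 3.11.15, numpy 2.4.6 and pandas 2.3.3, and figures with matplotlib 3.10.9. Lengths, exons and transcript sequences came from the GENCODE annotation of GRCm39, the build of the table, which holds 17475 of the 17583 identifiers (99.39%). Gene coordinates are those of the table, and those of the printed stretches and of Foxf2 come from the annotation. Coding stretches were located with biopython 1.88, and windows of 72 bases were searched in the genome with BLAST 2.17.0. The worth of 1 read was estimated from whole numbers between 5 and 120. The scripts were tested on simulated data. Ratios were tested by exact sign-flip permutation within mice. Alternatives were scaling by trimmed means or to equal totals, other lengths, pseudocount 1, the longest protein-coding transcript (added after seeing the data), other limits on the mean, and leaving out each mouse. The genes named were all members, the other forkhead genes listed, and in each pathway list the highest, the lowest and those varying by over 20% with a mean of at least 200. Some items under this rule are not reported here. Members and lists were chosen with earlier results of these data known. The labels call the libraries biological replicates, so SDs measure the spread between these samples.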

Additional observations from a re-analysis of the deposited data

How the results depend on the processing

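The ranks and mean counts of the 10 members moved by less than the spread between mice under both other scalings. The factors of these scalings lay between 0.989 and 1.006, so they could move the values only slightly. With 3 mice, leaving out 1 cannot move a mean by as much as that spread, so those recomputations are not counted here. The count of members above the median of all genes was 8 or 9 of 10 in all 9 recomputations. Of the 49 recomputed class ratios, 46 kept their direction. Without division by length, the log2 ratio of Foxo1 to Foxo4 turned to 0.36 and that of Foxk1 to Foxk2 to 0.018. Leaving out 1 mouse at a time, the ratio of Foxn3 to Foxn2 ran from -0.016, without mouse 1, to 0.26. The number of members that varied by over 20% ran from 1, without mouse 2 or mouse 3, to 3, without mouse 1. Of all genes that passed the limit on the mean, 455 of 9396 varied so without mouse 1. Without mouse 2 the count was 921 of 9339 genes, and without mouse 3 it was 812 of 9320. The count over all genes was thus lowest where that of the members was highest. No paired analysis was possible because the 3 libraries form a single group, so no groups share replicate numbers. The class ratios were taken within each mouse. With about 69 to 104 reads of Foxf1 per library, depth limits Foxf1 and the forkhead genes below it.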

Other observations

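Among noncoding RNA genes beside forkhead genes that are no members, Foxd2os, on the strand opposite to Foxd2, had 216, 267 and 278 normalized counts in mice 1, 2 and 3, and Foxd2 had 157, 170 and 138. Foxo6os had 12, 10 and 5, and Foxo6 had 54, 50 and 53. These pairs were singled out after their values were seen, and their levels were not compared per length.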
